A study of Mus musculus with 9 samples.

Results

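The 42 genes described here encode the machinery that copies DNA. They were chosen by name and comprise 12 origin-licensing genes, 22 genes of the replication fork, 5 genes of deoxynucleotide supply and 3 regulators of entry into S phase, out of 20258 gene symbols with a probe on the arrays. All 42 had a probe. Signals of 39 were well above background on all 9 arrays, those of Pola2 on 8 and those of Orc1 on 5. Ccne2, encoding a cyclin E, was well above background on none of the 9 arrays, which leaves 41 genes to compare.

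RNA of thymocytes from C57BL/6 mice, separated by surface CD4, CD8 and TCRβ, was hybridised to 9 one-colour (Cy3) Agilent arrays, 1 per group. The conditional knockout (CKO) mice were Brd1flox/flox with Tie2-Cre and the control mice Brd1+/+ with Tie2-Cre, so that Tie2-Cre, which acts in endothelial and blood-forming cells, was common to all groups and the deletion was not limited to thymocytes. Arrays were made of double positive (DP) cells and of cells with CD4 alone (CD4SP) or CD8 alone (CD8SP), each from CKO and control mice at 8 weeks, of CD4SP(TCRβ-) cells of CKO mice alone at 8 weeks, and of CD8SP cells of CKO and control mice that also carried OT-l (OT-I, a T cell receptor transgene whose product sees antigen on MHC class I) at 14 weeks. The labels do not say how many animals gave a sample, and with 1 array per group no difference between a pair of arrays has a replicate check.

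Levels are log2 signals with the 75th percentile of an array's probes at 0, and differences are on the same log2 scale, CKO minus control unless another pair is named. Per array, 39.06% to 45.94% of probes were well above background, and no spot was saturated. The median gene differed by 0.15 between the DP arrays, -0.01 between the CD4SP arrays, -0.12 between the CD8SP arrays and -0.09 between the OT-I arrays. Scaled by the 75th percentile of the probes detected on every array, these medians were -0.07, -0.03, 0.01 and 0.19. Cd4 had levels of 6.19 to 6.54 on the DP and CD4SP arrays, the CD4SP(TCRβ-) one included, and of 3.14 to 3.50 on the CD8SP arrays. Cd8a had levels of 4.60 to 5.46 on the DP and CD8SP arrays and of -2.11 to -0.32 on the CD4SP arrays. The probe of Brd1, the deleted gene, was not lower on the CKO arrays (-0.33 against -0.79 in DP, -0.98 against -1.09 in CD4SP, -0.73 against -1.37 in CD8SP and -0.73 against -1.34 in OT-I cells); where it lies relative to the deleted part is not known here, so it does not check the labels. Slide 1 held the DP and CD4SP arrays of both genotypes, the CD4SP(TCRβ-) array and the CD8SP control array, and slide 2 held the CD8SP CKO array and both OT-I arrays.

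Before a cell divides, the origin recognition complex marks origins in G1 phase, and Cdc6 and Cdt1 load the ring of Mcm2 to Mcm7 onto DNA there, a step called licensing that geminin (Gmnn) blocks once S phase has begun. Cdc45, the GINS complex and Mcm10 then turn the ring into an active helicase, and polymerases, primase, the sliding clamp Pcna and its loader, the single-strand binding protein RPA and the enzymes that join Okazaki fragments follow the fork. Cyclin E and E2f1 drive entry into S phase, and E2F factors are textbook activators of many of these genes. In the thymus, rapid division takes place mainly before and at the entry into the DP stage, in cells that include immature CD8 single positive cells, whereas small DP cells and mature single positive cells divide little.

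Promoter sequences are given for 6 genes, to show where E2F-like letters do and do not lie in genes whose signals are described below. They come from RefSeq (GRCm38.p6) and run over the 250 bases before the annotated start, 5′ to 3′ on the gene's strand. Capitals mark any of TTTCCCGC, TTTCGCGC, TTTGCCGC and TTTGGCGC, on either strand. Mcm6 and Mcm5 encode helicase ring subunits, Cdc6 a loader of the ring, Rfc3 a subunit of the clamp loader, Gins3 a GINS subunit and Rrm2 the small subunit of ribonucleotide reductase.
Mcm6 (chr1:128359706-128359955, minus strand): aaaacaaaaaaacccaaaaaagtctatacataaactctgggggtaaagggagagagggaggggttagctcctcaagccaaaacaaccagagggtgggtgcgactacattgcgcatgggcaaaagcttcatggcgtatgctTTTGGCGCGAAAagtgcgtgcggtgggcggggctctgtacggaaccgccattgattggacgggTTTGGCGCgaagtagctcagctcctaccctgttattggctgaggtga
Mcm5 (chr8:75109259-75109508, plus strand): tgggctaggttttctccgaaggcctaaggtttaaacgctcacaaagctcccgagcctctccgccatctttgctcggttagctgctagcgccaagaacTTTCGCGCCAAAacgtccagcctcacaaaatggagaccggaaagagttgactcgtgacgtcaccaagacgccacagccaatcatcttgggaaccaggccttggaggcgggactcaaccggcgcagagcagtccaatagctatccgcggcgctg
Cdc6 (chr11:98907901-98908150, plus strand): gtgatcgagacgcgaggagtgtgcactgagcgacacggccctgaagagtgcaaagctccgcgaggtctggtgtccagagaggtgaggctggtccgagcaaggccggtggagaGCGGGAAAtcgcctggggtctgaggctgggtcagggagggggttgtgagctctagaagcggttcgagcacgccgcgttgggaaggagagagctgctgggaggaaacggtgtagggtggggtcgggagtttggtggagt
Rfc3 (chr5:151651209-151651458, minus strand): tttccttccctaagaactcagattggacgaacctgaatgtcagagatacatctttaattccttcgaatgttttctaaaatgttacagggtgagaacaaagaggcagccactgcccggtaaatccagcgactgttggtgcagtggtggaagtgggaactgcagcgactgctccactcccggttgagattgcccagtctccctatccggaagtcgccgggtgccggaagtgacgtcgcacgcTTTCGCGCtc
Gins3 (chr8:95633309-95633558, plus strand): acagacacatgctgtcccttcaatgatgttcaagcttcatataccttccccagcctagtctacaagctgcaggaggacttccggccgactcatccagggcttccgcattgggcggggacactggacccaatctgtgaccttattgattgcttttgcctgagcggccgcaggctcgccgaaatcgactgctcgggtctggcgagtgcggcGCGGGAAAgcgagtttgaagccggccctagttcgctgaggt
Rrm2 (chr12:24708004-24708253, plus strand): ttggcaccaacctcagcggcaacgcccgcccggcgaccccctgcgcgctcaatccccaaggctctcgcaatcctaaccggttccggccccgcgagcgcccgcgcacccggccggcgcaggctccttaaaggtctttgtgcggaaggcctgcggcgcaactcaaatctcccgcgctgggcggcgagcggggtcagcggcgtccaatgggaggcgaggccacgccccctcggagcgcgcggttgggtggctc

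Mcm6 held 3 matches, with first bases 110, 106 and 47 bases before the start, and Mcm5 held 2, at 153 and 149 bases. In both, a match on one strand overlaps a match on the other, which gives the runs of capitals longer than 8 bases. Cdc6, Rfc3 and Gins3 held 1 match each, at 138, 10 and 41 bases before the start. Rrm2 held 0. Over windows of 300 bases (250 before to 50 after the start, both strands), the RefSeq table held 39 promoters of 34 of the 42 genes. Of the 39, 12 (30.8%) held at least 1 of these motifs, against 2.26% of all 32851 promoters. The 12 were those of Orc1, Cdc6, Cdt1, Mcm3, Mcm5, Mcm6, Mcm7, Gins3, Pola1, Pold1, Rfc3 and Lig1. TTTGCCGC was found in 0 of the 39. CCAAT, the core of the box bound by NF-Y, was found in 22 of the 39 promoters (56.4%) and in 37.4% of all. TTTGAA or TTCGAA, the letters of the cell cycle homology region, was found in 6 of the 39 (15.4%) and in 19.2% of all. These are matches of letters and not sites of binding.

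Across the 9 arrays the signals of most of the 41 genes varied together. The median over the genes was 3.95 in DP CKO and 4.06 in DP control cells, 2.60 in CD4SP CKO and 2.71 in CD4SP control cells, 4.34 in CD4SP(TCRβ-) CKO cells, 4.07 in CD8SP CKO and 5.48 in CD8SP control cells, and 3.16 in OT-I CKO and 5.54 in OT-I control cells. The median over all genes tested stayed between 0.59 and 0.65 on every array. The highest array was the OT-I control array for 27 of the 41 genes and the CD8SP control array for the other 14. The lowest was the CD4SP CKO array for 23, the CD4SP control array for 16, and the DP control and OT-I CKO arrays for 1 each. As each array holds RNA of a whole sorted population, fewer cells in S phase and less transcript per cell cannot be told apart.

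Of the 39 genes well above background everywhere, 38 had the CD8SP control and OT-I control arrays as their highest pair, against 24.4% of the 15081 genes well above background on all arrays. The exception was Gins3. For 35 of the 39 the lowest 3 arrays were CD4SP CKO, CD4SP control and OT-I CKO, against 10.7% of those 15081 genes, the exceptions being Orc2, Gins3, Rpa1 and Ccne1. Over the 9 arrays, which share slides and scaling, the median correlation between 2 of the 41 genes was 0.95, and 601 of 820 pairs (73.3%) exceeded 0.9. The lowest was -0.19. Such correlations were not computed for pairs of all genes. With the median of the other genes, the sliding clamp Pcna, Mcm5, Gmnn, Rfc4 and Rfc5 had r of 1.00 after rounding, while Gins3 had 0.15.

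**Figure D1:**
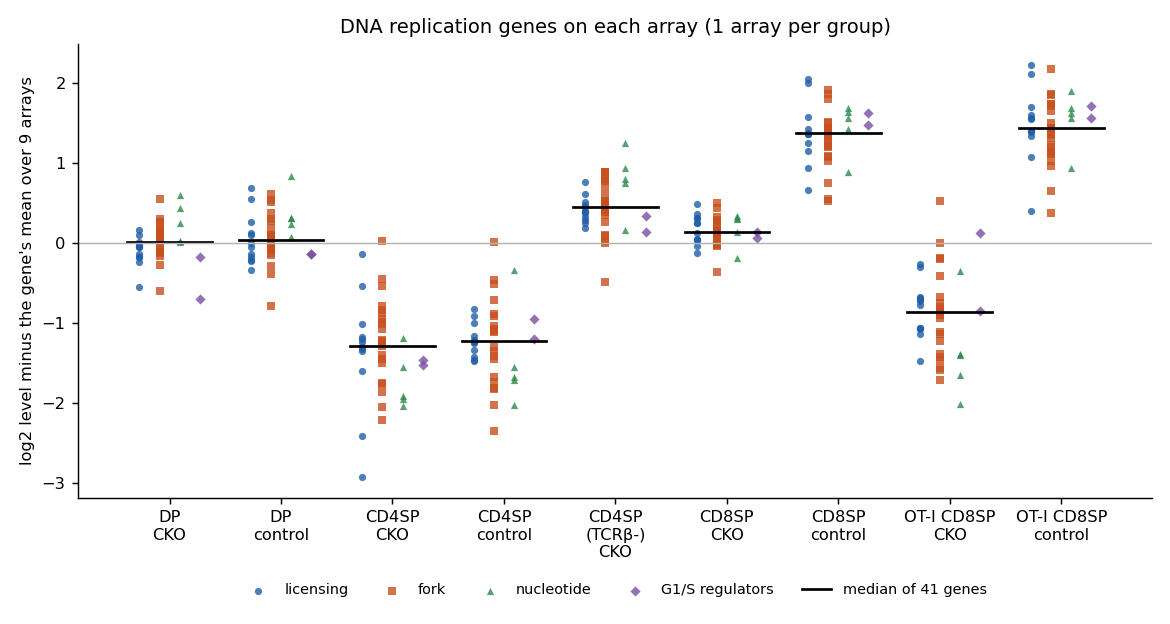
Each point is 1 of 41 DNA replication genes on 1 array, as its log2 level minus its own mean over the 9 arrays (y axis), coloured by role; bars are medians over the genes. The CD8SP control and OT-I control arrays lie highest and the CD4SP arrays of both genotypes lowest, with the OT-I CKO array next to them.

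In CD8SP cells, the CKO array gave a lower signal than the control array for all 41 genes. Their median difference was -1.19, a signal 2.28 times as high in control cells, and the range ran from -2.02 (Cdc6) to -0.08 (Gins3). The signal was more than 2-fold lower in CKO cells for 32 of the 41, against 10.1% of the 18632 genes compared, and more than 2-fold higher for 0, against 9.32%. After quantile normalisation 21 of the 41 were more than 2-fold lower, against 1589 of those 18632 genes, and after normexp and quantile normalisation 16, against 507. The CKO array lay on slide 2 and the control array on slide 1, so in this pair the effects of slide and of genotype cannot be told apart. The control arrays of slide 2 (OT-I) and slide 1 (CD8SP), which also differ in the transgene and in age, had a median difference of 0.08 over the 41 genes, with a range of -0.31 to 0.64.

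In CD8SP cells of OT-I mice, where both arrays lay on slide 2, the CKO signal was lower for 40 of the 41 genes. The median difference was -2.30, a signal 4.91 times as high in control cells, with a range from -3.75 (Mcm10) to 0.15 (Gins3). More than 2-fold lower were 38 of the 41, against 15.6% of the 18637 genes compared, and 0 were more than 2-fold higher, against 10.1%. More than 4-fold lower were 30, against 5.12% of 17608 genes compared in both pairs. More than 8-fold lower, a limit at which all genes were not counted, were 9 genes: Orc1, Cdc6, Mcm10, Gins1, Pole, Chaf1a, Rrm2, Tk1 and Dut. In both pairs 32 of the 41 were more than 2-fold lower, against 5.99% of those 17608 genes, in the OT-I pair alone 6, in the CD8SP pair alone 0, and in neither Orc2, Gins3 and Rpa1. The difference was more negative in the OT-I pair for 40 of the 41 genes, Gins3 being the exception, and across the genes the differences of the pairs correlated at r = 0.74 (n = 41, or 0.67 without Gins3; the genes share arrays and scaling).

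Relative to the median of all genes, the median of the 41 genes was -1.07 for CD8SP cells and -2.21 for OT-I cells, and -1.06 and -2.21 with the other percentile. Of all genes past 2-fold, 52.1% were lower in CD8SP CKO cells and 60.6% in OT-I CKO cells, against 40.7% and 41.4% when scaled by the always-detected probes and 45.7% and 52.2% after quantile normalisation. In the DP pair these shares were 61.0%, 75.7% and 59.4%.

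**Figure D2:**
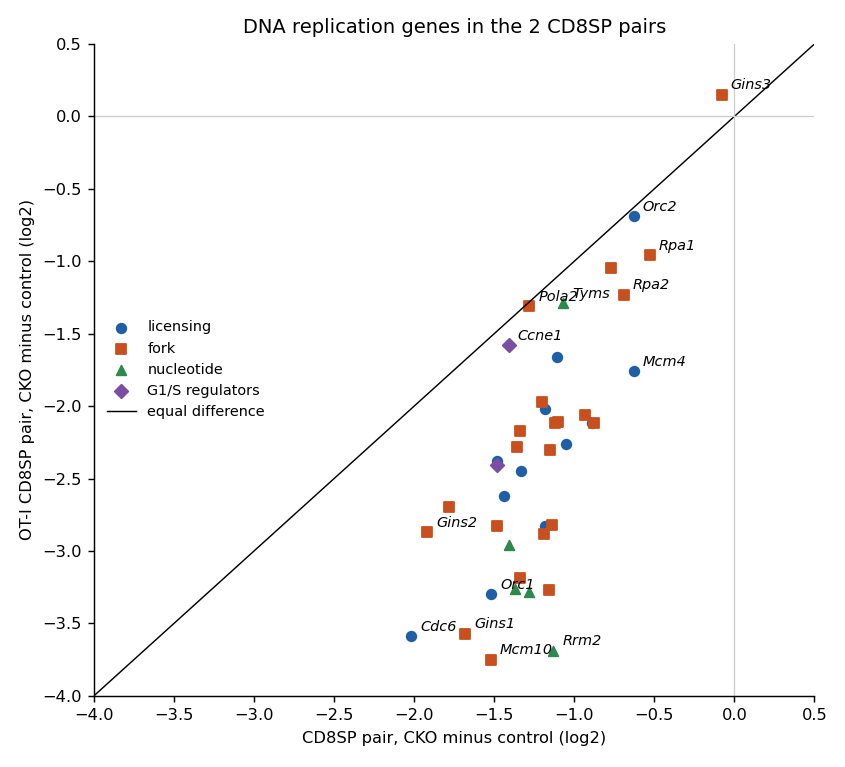
Each point is 1 of 41 genes, with its CKO minus control difference (log2) in CD8SP cells on the x axis and in OT-I CD8SP cells on the y axis; the line marks equal differences. All but Gins3 lie below the line, from Gins3 near 0 on both axes to Mcm10 at -1.52 and -3.75.

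The licensing genes were lower in both CD8SP comparisons, with medians of -1.18 (9 of 12 more than 2-fold) in CD8SP cells and -2.32 (11 of 12) in OT-I cells. Mcm5, a subunit of the helicase ring, had levels of 5.74 in DP CKO and 5.70 in DP control cells, 4.51 in CD4SP CKO and 4.54 in CD4SP control cells, 6.08 in CD4SP(TCRβ-) CKO cells, 5.88 in CD8SP CKO and 7.32 in CD8SP control cells, and 4.69 in OT-I CKO and 7.31 in OT-I control cells. Its CD8SP control and OT-I control arrays were thus almost equal and stood highest, and its OT-I CKO array lay next to the CD4SP arrays. The Mcm5 differences were -1.44 and -2.62, the largest of the 6 ring subunits in both pairs. The smallest were those of Mcm4, -0.63 and -1.76, and the medians over the 6 subunits were -1.12 and -2.19.

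Cdc6, which loads the ring, had the lowest measured difference of the licensing genes in both CD8SP comparisons; Orc1, for which the OT-I pair gives only a bound, cannot be ranked against it there. Its levels were 0.51 in DP CKO and 1.20 in DP control cells, -1.76 in CD4SP CKO and -0.82 in CD4SP control cells, 1.41 in CD4SP(TCRβ-) CKO cells, 0.68 in CD8SP CKO and 2.70 in CD8SP control cells, and -0.83 in OT-I CKO and 2.76 in OT-I control cells. The Cdc6 signal was 4.06-fold lower in CD8SP CKO and 12.0-fold lower in OT-I CKO cells than in their controls, and it was also lower in DP (-0.69) and CD4SP (-0.94) CKO cells, by less than 2-fold. Its partner Cdt1 differed by -1.11 and -1.66 in CD8SP and OT-I cells and by 0.02 and 0.13 in DP and CD4SP cells. Geminin, the inhibitor of Cdt1, had levels of 2.40 in CD8SP CKO against 3.58 in CD8SP control cells and of 1.02 in OT-I CKO against 3.85 in OT-I control cells.

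The 3 listed subunits of the origin recognition complex had unequal differences. Its subunits outside the list, Orc3, Orc4 and Orc5, stayed within 2-fold in these pairs. They differed by -0.11, 0.58 and -0.37 in CD8SP cells and by -0.57, 0.93 and -0.22 in OT-I cells. Orc1, the largest subunit, was well above background on 5 arrays, at -2.09 in CD4SP(TCRβ-) CKO, -1.98 in CD8SP CKO, -1.78 in DP control, -0.47 in CD8SP control and -0.24 in OT-I control cells. It was not well above background in DP CKO, in either CD4SP array or in OT-I CKO cells, where its measured level was -3.54. Its signal was at least 9.13-fold lower in OT-I CKO than in OT-I control cells, at least 2.35-fold lower in DP CKO than in DP control cells, and 2.86-fold lower in CD8SP CKO than in CD8SP control cells. Orc6 had differences of -1.48 and -2.38 in the CD8SP and OT-I pairs. Orc2, by contrast, stayed within 2-fold in all 4 pairs (0.28, 0.69, -0.63 and -0.69 in DP, CD4SP, CD8SP and OT-I cells).

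**Figure D3:**
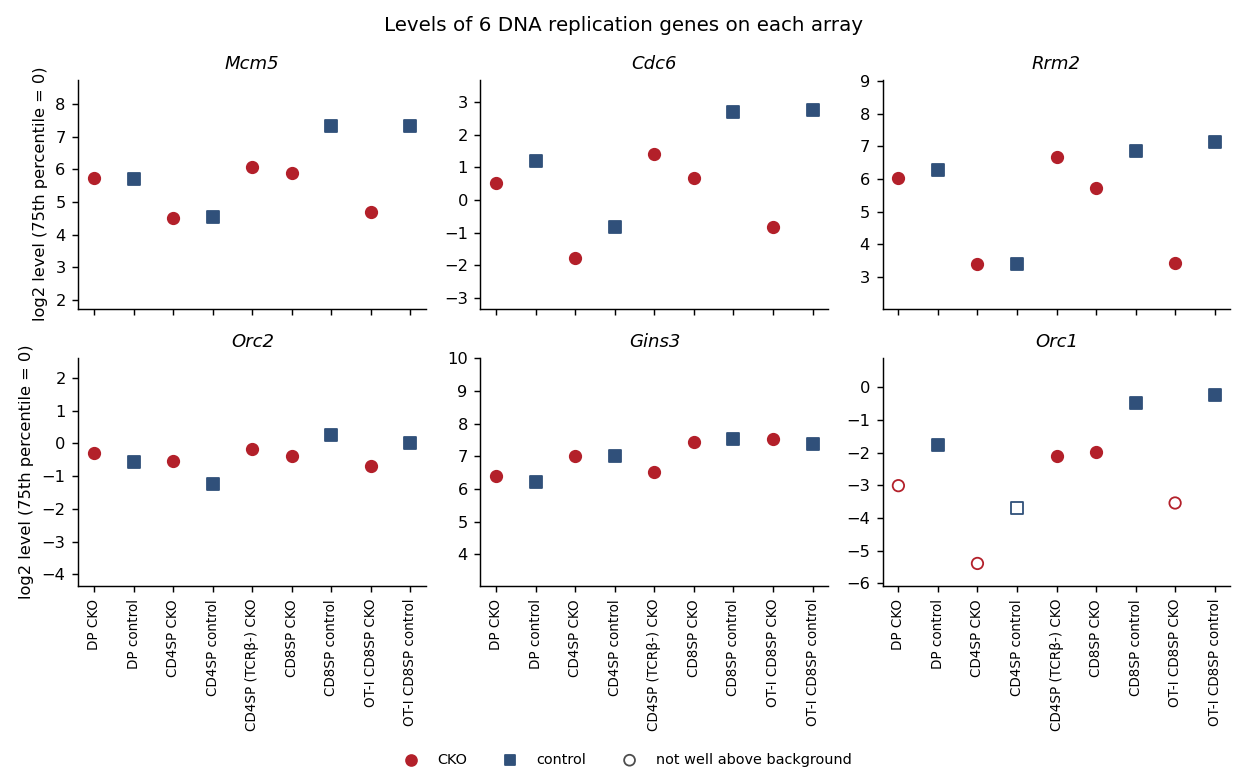
Log2 levels (y axis, 75th percentile of the array at 0) of Mcm5, Cdc6, Rrm2, Orc2, Gins3 and Orc1 on each of the 9 arrays (x axis), 1 point per array; open points are not well above background. Mcm5, Cdc6 and Rrm2 lie highest on the CD8SP control and OT-I control arrays, while Gins3 stays within 1.30 over all arrays.

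Among the 22 fork genes, the median difference was -1.17 for CD8SP cells (16 more than 2-fold lower) and -2.23 for OT-I cells (20 more than 2-fold lower). Mcm10, which helps activate the helicase, had levels of 3.09 in DP CKO and 3.24 in DP control cells, 0.73 in CD4SP CKO and 1.12 in CD4SP control cells, 3.82 in CD4SP(TCRβ-) CKO cells, 3.21 in CD8SP CKO and 4.73 in CD8SP control cells, and 1.37 in OT-I CKO and 5.11 in OT-I control cells. The OT-I CKO array stood between the CD4SP arrays and all others. Its signal was 13.4-fold lower in OT-I CKO than in OT-I control cells, and the highest and lowest arrays differed 20.9-fold. Cdc45, a part of the active helicase, had differences of -1.78 and -2.70 in the CD8SP and OT-I pairs.

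The 4 GINS subunits had unequal differences. Gins1 had levels of 3.06 in CD8SP CKO against 4.74 in CD8SP control cells and of 1.17 in OT-I CKO against 4.74 in OT-I control cells. Gins2 differed by -1.92 and -2.87 in these pairs, and Gins4 by -0.77 and -1.05. Gins3 had levels of 6.40 in DP CKO and 6.22 in DP control cells, 7.02 in CD4SP CKO and 7.01 in CD4SP control cells, 6.52 in CD4SP(TCRβ-) CKO cells, 7.44 in CD8SP CKO and 7.52 in CD8SP control cells, and 7.52 in OT-I CKO and 7.37 in OT-I control cells. The DP and CD4SP(TCRβ-) arrays were thus the lowest for Gins3 and all CD8SP arrays the highest, and its signal varied 2.47-fold over the 9 arrays. Its promoter above holds 1 E2F-like match, and that of Mcm5, whose signal varied 7.00-fold, holds 2. The Gins3 difference in the OT-I pair was 0.15, or 0.68 after quantile normalisation.

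The listed polymerase, primase and clamp loader genes were lower in both CD8SP comparisons, by unequal amounts. Outside the list, Pold4 (0.49 in CD8SP and 0.58 in OT-I cells) and Pole4 (0.06 and 0.14) were not lower, whereas Pold2, Pold3, Pole2 and Pole3 were. The clamp loader subunits Rfc1 and Rfc2, also outside the list, differed by -0.37 and -0.77 in CD8SP cells and by -0.85 and -1.23 in OT-I cells. The 4 subunits of polymerase alpha and primase had differences of -1.28 to -0.88 in CD8SP cells and of -2.82 (Prim1) to -1.31 (Pola2) in OT-I cells. Pold1, catalytic subunit of polymerase delta, differed by -1.15 and -2.30, and Pole, that of polymerase epsilon, by -1.16 and -3.27. A dim probe of Pole, well above background on 0 arrays, brings its OT-I difference to -1.59 when its probes are averaged. Rfc3, Rfc4 and Rfc5 of the clamp loader had differences of -1.48 to -1.12 and of -2.83 to -2.12. The clamp Pcna had levels of 7.11 in CD8SP CKO against 8.20 in CD8SP control cells and of 6.17 in OT-I CKO against 8.28 in OT-I control cells.

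RPA coats single-stranded DNA in replication and also in repair. Its listed subunits had the smallest median differences of the fork complexes, -0.61 in CD8SP and -1.09 in OT-I cells. Rpa1 had differences of -0.53 and -0.96 and Rpa2 of -0.69 and -1.23 in the CD8SP and OT-I pairs. Rpa3, outside the list, differed by -1.37 and -1.77. Fen1 and Lig1, which trim and join Okazaki fragments, had differences of -0.93 and -1.19 in CD8SP cells and of -2.06 and -2.88 in OT-I cells. The chromatin assembly factor subunits Chaf1a and Chaf1b, which deposit histones behind the fork, both differed by -1.34 in the CD8SP pair but by -3.19 and -2.17 in the OT-I pair.

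**Figure D4:**
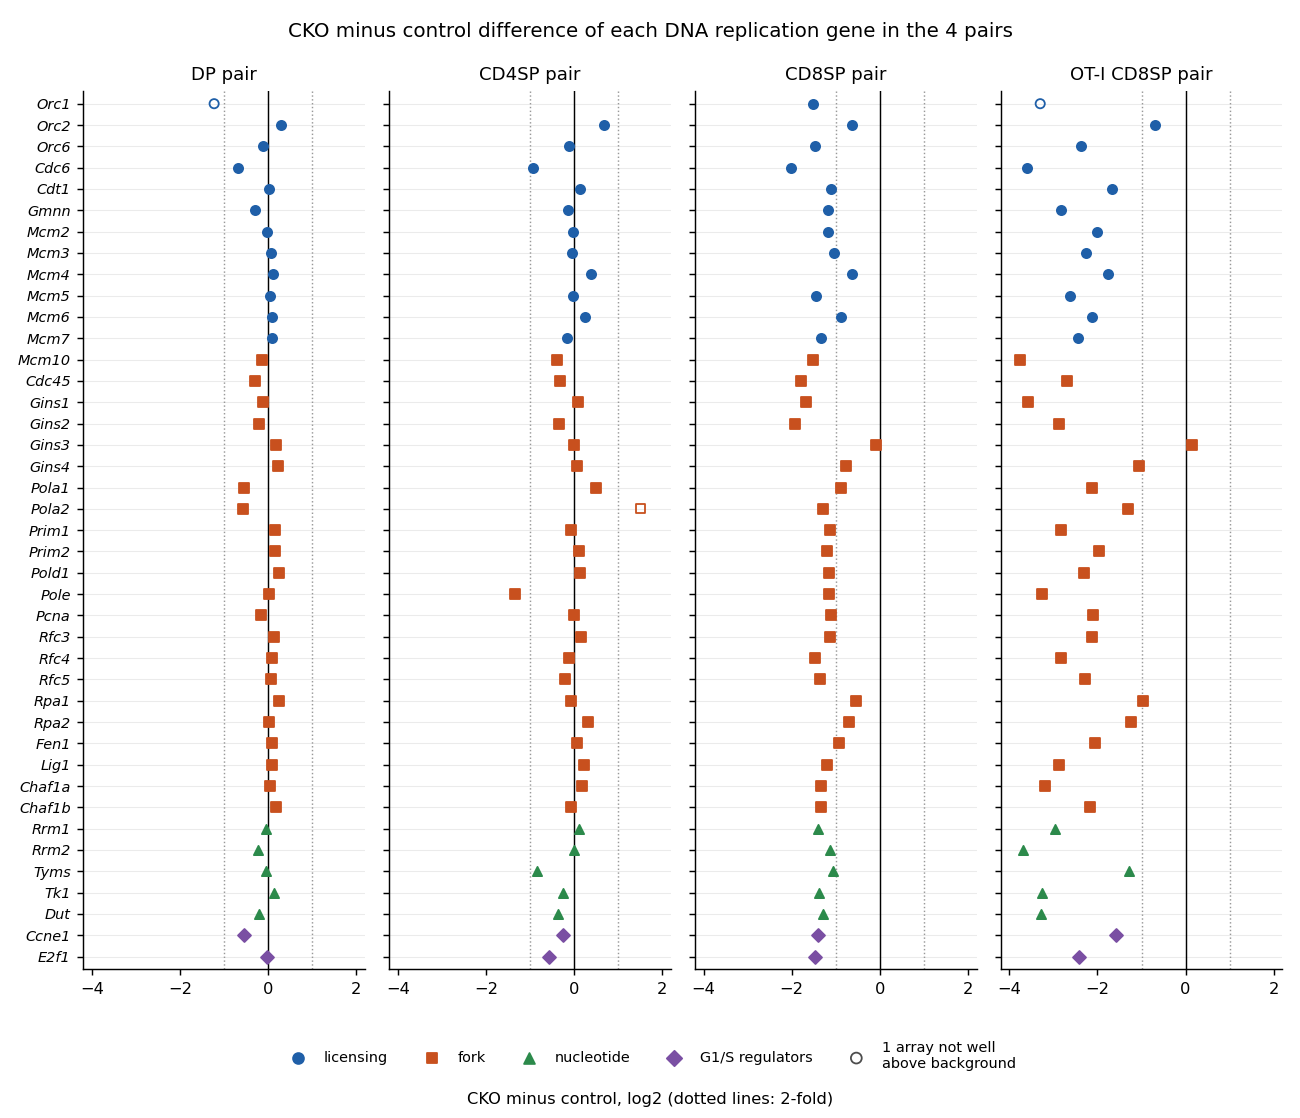
CKO minus control difference (log2, x axes) of each of 41 genes (rows, grouped by role) in the DP, CD4SP, CD8SP and OT-I CD8SP pairs; dotted lines mark 2-fold and open points have 1 array not well above background. Differences centre near 0 for DP and CD4SP cells, at -1.19 for CD8SP cells and at -2.30 for OT-I cells.

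Genes of deoxynucleotide supply had the lowest median of the groups in the OT-I pair, -3.26, a signal 9.57 times as high in control cells, and a median of -1.28 in the CD8SP pair. All 5 were more than 2-fold lower in both. Rrm2 had levels of 6.04 in DP CKO and 6.27 in DP control cells, 3.40 in CD4SP CKO and 3.41 in CD4SP control cells, 6.68 in CD4SP(TCRβ-) CKO cells, 5.73 in CD8SP CKO and 6.86 in CD8SP control cells, and 3.43 in OT-I CKO and 7.12 in OT-I control cells. The OT-I CKO array gave about the signal of the CD4SP arrays, and it was 12.9-fold below the OT-I control array, against 2.18-fold in the CD8SP pair. Rrm1, the large subunit of the reductase, differed by -1.41 and -2.96. The thymidine kinase Tk1 differed by -1.37 and -3.26 and the dUTPase Dut by -1.28 and -3.28, whereas thymidylate synthase (Tyms) differed by -1.07 and -1.29.

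Of the regulators of S phase entry, Ccne1, a cyclin E, had levels of 4.07 in CD8SP CKO against 5.48 in CD8SP control cells and of 4.13 in OT-I CKO against 5.71 in OT-I control cells. It was almost equal on the OT-I CKO and CD8SP CKO arrays, where 39 of the 41 genes were lower in OT-I CKO cells. A dimmer probe of Ccne1, well above background on 8 arrays, gave the reverse order of the pairs. It differed by -2.03 in CD8SP and by -0.89 in OT-I cells. E2f1, a transcription factor of S phase genes, had levels of 2.28 against 3.76 in CD8SP CKO and control cells and of 1.29 against 3.70 in OT-I CKO and control cells.

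In DP and CD4SP cells the CKO and control arrays gave almost the same signals for most of the genes. In the DP pair the median difference over the 41 genes was 0.02, with 23 positive and 18 negative, and it was -0.19 to -0.21 with the other scalings of the array, so it has no settled sign. More than 2-fold lower was 1 gene, Orc1 (7.59% of the 20103 genes compared), and 0 were higher (4.86%). In the CD4SP pair the median over 40 genes was -0.03, with 17 positive and 23 negative. Past 2-fold were Pole, lower at -1.34 (0.83 in CKO against 2.17 in control cells), and Pola2, higher by at least 2.62-fold in CKO cells since its control signal was not well above background. That is 1 gene in each direction, against 5.54% lower and 6.65% higher of the 19808 genes compared. The 6 ring subunits stayed within -0.03 to 0.10 for DP and -0.15 to 0.38 for CD4SP cells. Rfc3, Rfc4 and Rfc5 of the clamp loader stayed within 0.06 to 0.13 and -0.20 to 0.16.

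Fitted over all 9 arrays with limma (population and genotype as terms, 3 residual degrees of freedom), the genotype effect had a median of -0.95 over the 41 genes, 40 of them negative. None passed an adjusted p below 0.05 (0 of 41, against 0.281% of the 20301 genes tested), and 8 had an unadjusted p below 0.05, against 10.9%. The lowest adjusted p was that of Orc1 (-1.94, SE 0.37, adjusted p = 0.174; 0.137 to 0.443 over the other settings), whose value rests partly on arrays not well above background. The error of this fit is the spread of the genotype difference between populations. Without the OT-I pair the median was -0.42, and on the slide 1 arrays alone, which hold only the DP and CD4SP pairs, it was -0.02. With slide as a block it was -0.81. Only the CD8SP pair spans both slides, so the slide term takes up the difference of that pair. The fit with slide as a block is thus the same as one without the CD8SP pair.

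The difference between the CD8SP pairs and the other pairs was tested as an interaction in limma, with 2 residual degrees of freedom. It was negative for all 41 genes, with a median of -1.77, and 0 of 41 passed, as did 0.0% of all genes. At an unadjusted p below 0.05 there were 33 of the 41, against 15.0% of all genes tested. The lowest p was that of Gins2 (-2.12, SE 0.44, adjusted p = 0.315; 0.0957 to 0.611 over the other settings). The contrast was chosen with these differences known. Its median was -2.26 without the CD8SP pair and -1.19 without the OT-I pair.

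The difference between CD4SP and DP cells was similar in both genotypes. CD4SP minus DP had a median of -1.29 in CKO cells, with 27 of 40 genes more than 2-fold lower (9.94% of all genes compared), and of -1.26 in control cells, with 29 of 41 more than 2-fold lower (13.3%). Only Gins3 was positive among the genes compared, at 0.62 in CKO and 0.80 in control cells. Rrm2, the small reductase subunit, differed by -2.64 in CKO and -2.86 in control cells. In the limma fit the median was -1.32 and 0 of 41 genes passed (3.11% of all genes), with 11 at an unadjusted p below 0.05 (17.7% of all). The lowest adjusted p was that of Orc1 (-2.14, SE 0.53, adjusted p = 0.107; 0.00952 to 0.535 over the other settings).

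On the slide 1 arrays alone, with 1 residual degree of freedom, 17 of the 41 genes passed as lower in CD4SP than in DP cells, against 4.75% of all genes. They were Rrm2 (-2.75, SE 0.33, adjusted p = 0.00402 in limma), Chaf1a, Mcm10, Tk1, Cdc6, Gins1, Orc1, Rrm1, Dut, Lig1, Gins2, Prim1, Gmnn, Cdc45, Rfc4, Mcm7 and Orc6, with estimates from -2.75 to -1.36. Without the OT-I pair 6 passed as lower (Rrm2, Orc1, Chaf1a, Mcm10, Cdc6 and Tk1), against 2.56% of all genes.

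The median difference between CD8SP and DP cells was closer to 0 in the CKO than in the control. The CKO comparison crosses slides and the control comparison does not, so here too an effect of slide and one of genotype cannot be told apart. CD8SP minus DP had a median of 0.06 in CKO cells, with 24 genes positive and 17 negative, and 2 more than 2-fold higher (10.5% of all genes compared). These were Gins3 (1.04) and Orc1 (1.03), whose DP CKO signal was not well above background. In control cells the median was 1.28, all 41 were positive and 33 were more than 2-fold higher (18.3%). Relative to CD4SP cells, CD8SP cells had medians of 1.44 in the CKO (29 of 41 more than 2-fold higher, 7.11% of all) and of 2.63 in the control (40 of 41, 15.4%). These comparisons share arrays with each other and with the genotype differences above. In limma, 0 of 41 genes passed for CD8SP minus DP (3.48% of all), with a median of 0.71, all 41 positive and 2 at an unadjusted p below 0.05 (20.9% of all). The lowest adjusted p was that of Gins3 (1.17, SE 0.25, adjusted p = 0.0729), which passed only when genes had to be well above background on every array (adjusted p = 0.0409; up to 0.321 over the other settings).

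OT-I and non-transgenic CD8SP cells hardly differed in the control. OT-I minus CD8SP had a median of -1.02 in CKO cells, with 39 of 41 genes negative and 22 more than 2-fold lower (9.38% of all genes compared). In control cells the median was 0.08 and 0 were past 2-fold in either direction (5.40% higher and 6.41% lower of all). The OT-I mice were also older. The control comparison crosses slides, whereas the CKO comparison lies within slide 2. In the control, effects of slide, transgene and age cannot be told apart. In limma 0 of 41 passed for OT-I minus CD8SP (0.236% of all), 0 had an unadjusted p below 0.05 (6.96% of all), and the median was -0.47.

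CD4SP(TCRβ-) CKO cells, which carry CD4 but no surface TCRβ, gave signals above those of CD4SP CKO cells for 40 of the 41 genes. CD4SP(TCRβ-) minus CD4SP had a median of 1.75, a signal 3.37 times as high, and 35 of 41 were more than 2-fold higher (11.3% of all genes compared). Gins3 was the exception, at -0.50. Against DP CKO cells the median was 0.45, all 41 genes were positive, and 1, Pola1 (1.05), was past 2-fold (2.90% of all). Mcm6 had levels of 7.99 in CD4SP(TCRβ-) CKO cells, against 7.43 in DP CKO and 6.30 in CD4SP CKO cells. For this helicase ring subunit the CD4SP(TCRβ-) array thus lay above both.

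With no control array for CD4SP(TCRβ-) cells, the limma contrasts borrow the genotype effect estimated from the complete pairs in the fit, 4 in the main one. That effect had a median of -0.95, whereas the DP and CD4SP pairs themselves had medians of 0.02 and -0.03. By construction the fitted medians of the main fit therefore exceed the direct CKO differences, 1.75 from CD4SP and 0.45 from DP cells. Against CD4SP cells the median was 2.18 and 0 of 41 genes passed (1.41% of all), with 30 at an unadjusted p below 0.05 (16.7% of all). Orc1 had the lowest adjusted p (3.42, SE 0.67, adjusted p = 0.0825; 0.0116 to 0.342 over the other settings). The single CD4SP(TCRβ-) array adds no spread of its own and is assumed to vary like the other groups. Under that assumption 15 genes passed as higher on the slide 1 arrays alone, a fit with only the DP and CD4SP pairs and 1 residual degree of freedom, against 3.22% of all: Rrm2 (3.33, SE 0.43, adjusted p = 0.0101 in limma), Cdc6, Orc1, Mcm10, Chaf1a, Tk1, Dut, Gins1, Rrm1, Prim1, Gmnn, Gins2, Lig1, Pole and Pola1. Without the OT-I pair 5 passed as higher (Orc1, Rrm2, Cdc6, Mcm10 and Dut), against 1.06% of all. The Orc1 values rest on CD4SP signals that were not well above background. Against DP cells the fitted median was 0.89, 0 of 41 passed (0.0% of all) and 0 had an unadjusted p below 0.05 (1.65% of all).

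**Figure D5:**
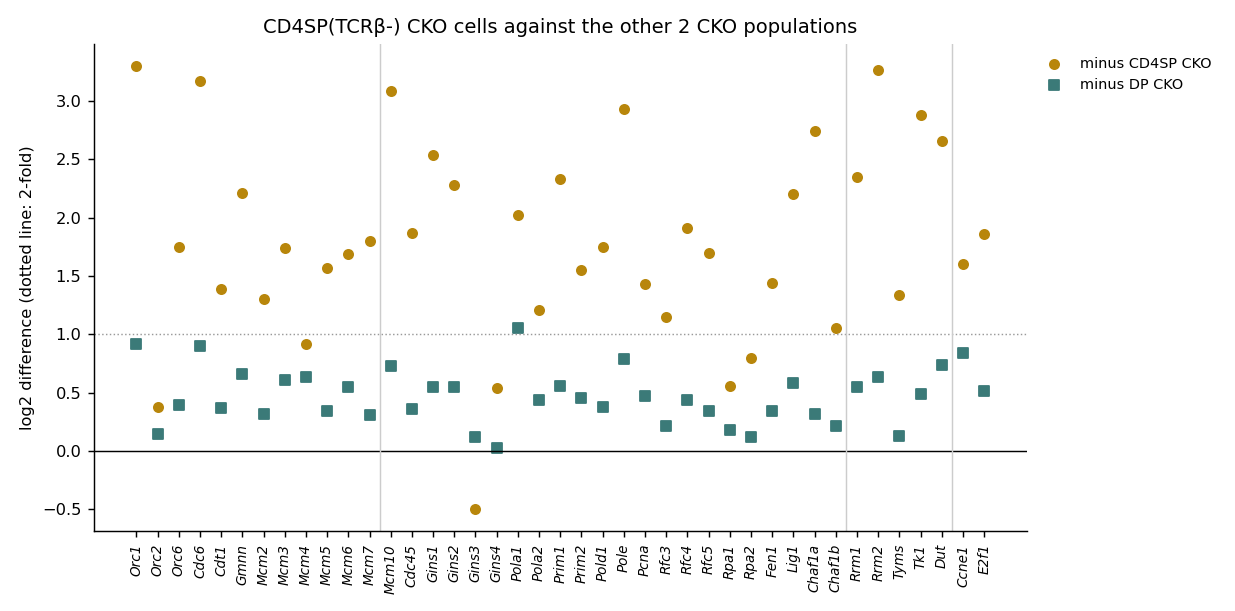
Log2 difference (y axis) of CD4SP(TCRβ-) CKO cells from CD4SP CKO cells (circles) and from DP CKO cells (squares) for each of 41 genes (x axis, grouped by role); the dotted line marks 2-fold. All genes but Gins3 lie above 0 against CD4SP cells, and the differences from DP cells lie between 0.02 and 1.05.

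The 53 other genes of the replication pathway, from origin firing to histone supply, had medians closer to 0 than the 42 genes in both CD8SP comparisons, a difference that was not tested. Their median was -0.89 for CD8SP cells, with 22 of 52 more than 2-fold lower and 0 higher (10.1% and 9.32% of all genes), and -1.69 for OT-I cells, with 37 of 51 lower and 0 higher (15.6% and 10.1% of all). In the DP pair the median was -0.04 (3 of 52 more than 2-fold lower, 7.59% of all), and in the CD4SP pair 0.06 (1 of 49 in each direction, 5.54% lower and 6.65% higher of all). The largest OT-I differences were those of E2f8 (-3.89), E2f2 (-3.81), Ticrr (-3.66), Recql4 (-3.63) and E2f7 (-3.59). E2f7 and E2f8 are repressors among the E2F factors, while Ticrr and Recql4 act in origin firing. In limma 0 of 52 passed for genotype (0.281% of all genes) and 7 had an unadjusted p below 0.05 (10.9% of all). Clspn, encoding the checkpoint mediator claspin, passed in CD4SP minus DP (-2.06, SE 0.31, adjusted p = 0.0318; 0.0123 to 0.126 over the other settings) and in CD4SP(TCRβ-) minus CD4SP (3.36, SE 0.40, adjusted p = 0.0324; 0.0113 to 0.0787), with a signal well above background on 7 of the 9 arrays.

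Genes of G2 phase and mitosis, a list of 24, had a median of -1.13 for CD8SP cells (12 of 22 more than 2-fold lower, 10.1% of all genes compared). Their median was -3.43 for OT-I cells (22 of 23 more than 2-fold lower, 15.6% of all), against -0.12 for DP and 0.39 for CD4SP cells. In CD4SP(TCRβ-) minus CD4SP their median was 2.96 (23 of 24 more than 2-fold higher, 11.3% of all).

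Markers of thymocyte stages differed in the CD8SP pairs and also in the other pairs. All 12 markers of mature single positive cells were higher in CKO cells of both CD8SP pairs. The medians of these markers were 1.26 in CD8SP and 1.32 in OT-I cells. More than 2-fold higher were 10 of 12 in CD8SP cells (9.32% of all genes compared) and 8 of 12 in OT-I cells (10.1% of all). Their summed signal, in units of the 75th percentile, was 2130 in CD8SP CKO against 911 in CD8SP control cells, and 1540 in OT-I CKO against 614 in OT-I control cells. The 10 DP stage markers had medians of -0.75 and -2.37, with 3 positive and 7 negative in each pair. They summed to 166 in CD8SP CKO against 228 in CD8SP control cells and to 78.8 in OT-I CKO against 202 in OT-I control cells. The 15 markers of immature double-negative and immature single positive cells summed to 69.0 against 88.9 in CD8SP CKO and control cells and to 85.5 against 98.2 in OT-I CKO and control cells. Hes1 and Igll1 of that list were well above background on none of the 9 arrays. Of the 13 compared, 6 were positive and 7 negative in CD8SP cells. Of these, 4 were more than 2-fold higher and 2 lower (9.32% and 10.1% of all genes). In OT-I cells 3 were positive and 10 negative, with 2 more than 2-fold higher and 4 lower (10.1% and 15.6% of all). Ptcra, the pre-T cell receptor alpha chain, differed by -2.25 and -5.11, and Il2ra, the interleukin-2 receptor alpha chain, by 1.52 and -2.71. CD4SP(TCRβ-) CKO cells had a summed DP stage signal of 722 against 58.8 in CD4SP CKO cells, and a summed mature signal of 194 against 1690. The part of these cell stages in the replication gene differences was not tested.

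Markers of other cell types were summed on the same arrays. Of 11 myeloid and dendritic markers with a probe, 6 were well above background on each CKO and 7 on each control CD8SP array, and they summed to 152 in CD8SP CKO against 94.9 in CD8SP control cells and to 92.2 in OT-I CKO against 67.6 in OT-I control cells. NK cell markers, some of which CD8 T cells also express, summed to 198 against 117 and to 379 against 95.6. Nearly all of this came from Nkg7, with levels of 7.59 in CD8SP CKO against 6.80 in CD8SP control cells and of 8.56 in OT-I CKO against 6.56 in OT-I control cells, while Klrd1 differed by -0.03 and 0.42, and Ncr1 and Klrk1 were well above background on none of the arrays. Granulocyte markers summed to 4.88 to 7.58 on the CKO and 5.24 to 8.30 on the control CD8SP arrays, erythroid markers to 14.9 to 23.5 and 11.5 to 13.4, B cell markers to 5.20 to 13.1 and 6.39 to 13.0, and stromal markers to 1.47 to 2.41 and 1.07 to 1.59. The defining markers Ltf, Ngp, Klf1, Pax5, Krt8, Col1a1 and Pdgfra were well above background on none of the 9 arrays, whereas other members of these lists, among them Elane, Blnk and Col1a2, were so on all 9. The part of other cells in the differences was not tested.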

How the data were processed

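Transcripts were measured on 9 one-colour arrays, 1 per group, and groups were taken from the labels. Per the file headers, the deposited scanner files hold 1 processed intensity per spot, from which Agilent Feature Extraction 10.7.1.1 had subtracted background and spatial trend, unscaled between arrays, on a design built on mm9. They also hold 0 or 1 flags, including the one for a signal well above background. The labels name a biotinylated Affymetrix protocol, whereas the files are those of Cy3 Agilent arrays. The deposited series table matched these signals divided by the 75th percentile of the array.

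Of 55681 probes, 144 marked as outliers were left out; 26715 of 55537 were named through RefSeq accessions. Each log2 signal was set against the array's 75th percentile, and a gene was given by its probe with the highest mean. A gene counted as well above background where any of its probes was so marked. Pairs were compared for genes well above background on at least 1 of the 2 arrays. Genes well above background on at least 2 arrays (20301, 12303 named) entered the fits (limma 3.58.1, R 4.3.3), two-sided, Benjamini-Hochberg over all, called at an adjusted p below 0.05. The variance prior added 2.91 degrees of freedom. Only the genotype contrast of the main fit was run on simulated data, with variances drawn from that fit's own prior.

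A gene not well above background on the whole of one side was given a bound from the lowest signal well above background on that array, the higher of that and its own. That signal is not a detection limit for each probe, so such a bound is not strict. Every listed gene was named. Other pathway genes were named by the size of the OT-I difference, because they passed the test, or as further subunits of a complex described. The genes, the lists and the tests were chosen with earlier results of these data known. The number of arrays limits the precision. Alternatives were other scalings (the 75th percentile over always-detected probes, quantile, and normexp with an offset of 50 on median spot and background signals, then quantile), the deposited table, other filters, the mean of a gene's probes, each pair left out, slide as a block and slide 1 alone.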

Additional observations from a re-analysis of the deposited data

Results flagged for a closer look

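Pola2, encoding the accessory subunit of polymerase alpha, differed in opposite directions between populations. Its level was -2.57 in CD4SP CKO against -4.08 in CD4SP control cells, a difference of 1.51, and -1.93 in OT-I CKO against -0.62 in OT-I control cells, a difference of -1.31. It was looked at again because every array of one pair moved opposite to the other; with 1 array per group the difference between the pairs was not tested. The CD4SP control signal was not well above background, and the difference in that pair was 0.29 with normexp and quantile normalisation.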

How the results depend on the processing

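Of 246 values recomputed under the alternatives, 227 kept their direction, their side of the threshold and their size within the spread used. Of 1176 recomputed pair differences of single genes, 0 reversed and 39 moved by about 0.5 or more, 30 of them with normexp and quantile normalisation and 8 with quantile normalisation alone. Normexp adds an offset of 50 to each signal, which by construction shrinks differences of dim probes. With it the OT-I median was -1.72, the interaction median -1.21, and 16 genes were more than 2-fold lower in the CD8SP pair (21 with quantile normalisation); the counts past 2-fold were 0 lower in the DP pair and 0 lower and 0 higher in the CD4SP pair. When both arrays had to be well above background, 0 were lower in the DP pair and 0 higher in the CD4SP pair, since fewer genes were compared. With no filter 2 were lower in the CD4SP pair, Orc1 being added.

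The interaction median ranged from -2.26 to -1.19 with pairs left out. It was -2.26 with slide as a block, which is the same fit as leaving out the CD8SP pair and does not correct that pair for slide. In CD4SP minus DP 6 genes passed without the OT-I pair and 17 on slide 1 alone, and in CD4SP(TCRβ-) minus CD4SP 5 and 15. In CD8SP minus DP 1 gene passed when detection on all arrays was required, and the median was 1.28 on slide 1 alone, which holds only the control CD8SP array. The causes of the changes in calls were not tested. The main fit itself already pairs CKO with control within each population. No further pairing by replicate was possible because each group has 1 array, which leaves no replicate numbers to use as a block. Genes near background, Orc1 and Pola2 above all, have signals too dim for a firm difference, and no pair difference has a replicate error.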
